A study of Mus musculus with 6 samples.

Results

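The 37 genes described here make up glycolysis and the steps around it, which are glucose and lactate transport, the glycerol phosphate enzymes, the entry of pyruvate into mitochondria, and glycogen storage. They were chosen by gene symbol, matched through the Ensembl identifier of each row, and all 37 were found among the 22095 genes of the table. Polyadenylated RNA was sequenced from olfactory bulbs, the forebrain structures in which odour-sensing axons end, of 3 ICR mice, an outbred strain. The left naris of each mouse was closed with a silica gel plug at postnatal day 30, and the bulbs were taken 60 days later, after perfusion. Left bulbs are those of the plugged side and right bulbs those of the open side, which gives 3 libraries per side, numbered by mouse as 1037, 1038 and 1039. No unplugged mouse was analysed here, and a difference that both sides of the brain normally have cannot be told apart from one that follows the plug. The labels used here do not give sex, and each library came from 1 bulb.

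The libraries held 14571453 to 15590938 counts, and a gene with a count of 0 could hold up to 3 counts, which is 0.192 to 0.206 CPM (counts per 1000000 counts of the library). That limit covers counting error only. The library labelled left 1038 went against its tissue label. The summed level of 10 bulb interneuron markers was 950 CPM in it, against 3391 to 4671 CPM in the other 5, and that of 10 cerebellar granule cell markers was 6703 CPM, against 451 to 494 CPM. The other 5 libraries held the bulb markers, and the test rests on them, with 2 left and 3 right libraries. The library labelled left 1038 is shown apart.

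Glycolysis splits glucose into pyruvate in the cytosol and yields ATP without oxygen. Glucose enters through transporters of the Slc2a family and is phosphorylated by hexokinase. Phosphofructokinase, set by the bifunctional Pfkfb enzymes, makes the committed step, and the enzymes from aldolase to pyruvate kinase follow. Pyruvate is then reduced to lactate by lactate dehydrogenase, or carried into mitochondria by the Mpc proteins for pyruvate dehydrogenase, which the Pdk kinases switch off. Gpd1 in the cytosol and Gpd2 on the inner mitochondrial membrane pass the electrons of cytosolic NADH to the respiratory chain. In brain, astrocytes are known to store glycogen and to release lactate, and neurons hold their own sets of isozymes and transporters.

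Transcripts of the trunk of glycolysis were lower in the left bulbs. Of the 37 members, all of which passed the filter on low counts, 17 fell and 0 rose, where a gene is called at an adjusted p under 0.05 (edgeR's quasi-likelihood test, Benjamini-Hochberg over 14412 genes). Among all genes tested 9.62% were called, with 6.46% fallen and 3.16% risen. With the mouse as a block in edgeR, 18 members fell and 2 rose, where 7.36% of all genes fell and 3.41% rose. The calls took in 8 of 9 genes from aldolase to pyruvate kinase, both lactate dehydrogenases, both glycerol phosphate dehydrogenases, 3 of 5 transporters and 2 of 3 genes of the hexokinase and isomerase group. None of the 6 phosphofructokinase genes, the 7 genes of pyruvate entry or the 3 glycogen genes was called. The median log2 fold change (left over right) of the members was -0.26, against 0.005 for all genes tested, and 28 of the 37 lay below 0, against 49.0% of all genes.

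Well-measured genes pass a test more easily, and the members are abundant. Of the 2593 genes with a mean of at least 100 CPM, a class set after the data were seen, 17.4% fell and 3.93% rose. In that class stood 22 of the members, of which 15 fell and 0 rose. In bulk tissue, fewer cells of a type and less RNA per cell cannot be told apart.

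The scale bears on the size of these values. CPM divides by the library total, while the fit used TMM factors, which were 1.03 and 1.04 in left 1037 and 1039 and 0.971, 0.979 and 0.983 in right 1037, 1038 and 1039. Fold changes of the fit therefore lie below the ratio of the CPM values. Scaled by total library size only, 12 members fell and 1 rose, which was Pdk4, where 4.09% of all genes fell and 6.77% rose. On that scale 975 genes were higher and 589 lower, against 456 higher and 931 lower with TMM, and the median log2 fold change was -0.18 for the members and 0.09 for all genes. On the CPM scale itself, both left libraries lay below all 3 right libraries for 19 members and above them for 6, where this held for 13.2% and 33.2% of all genes tested.

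**Figure D1:**
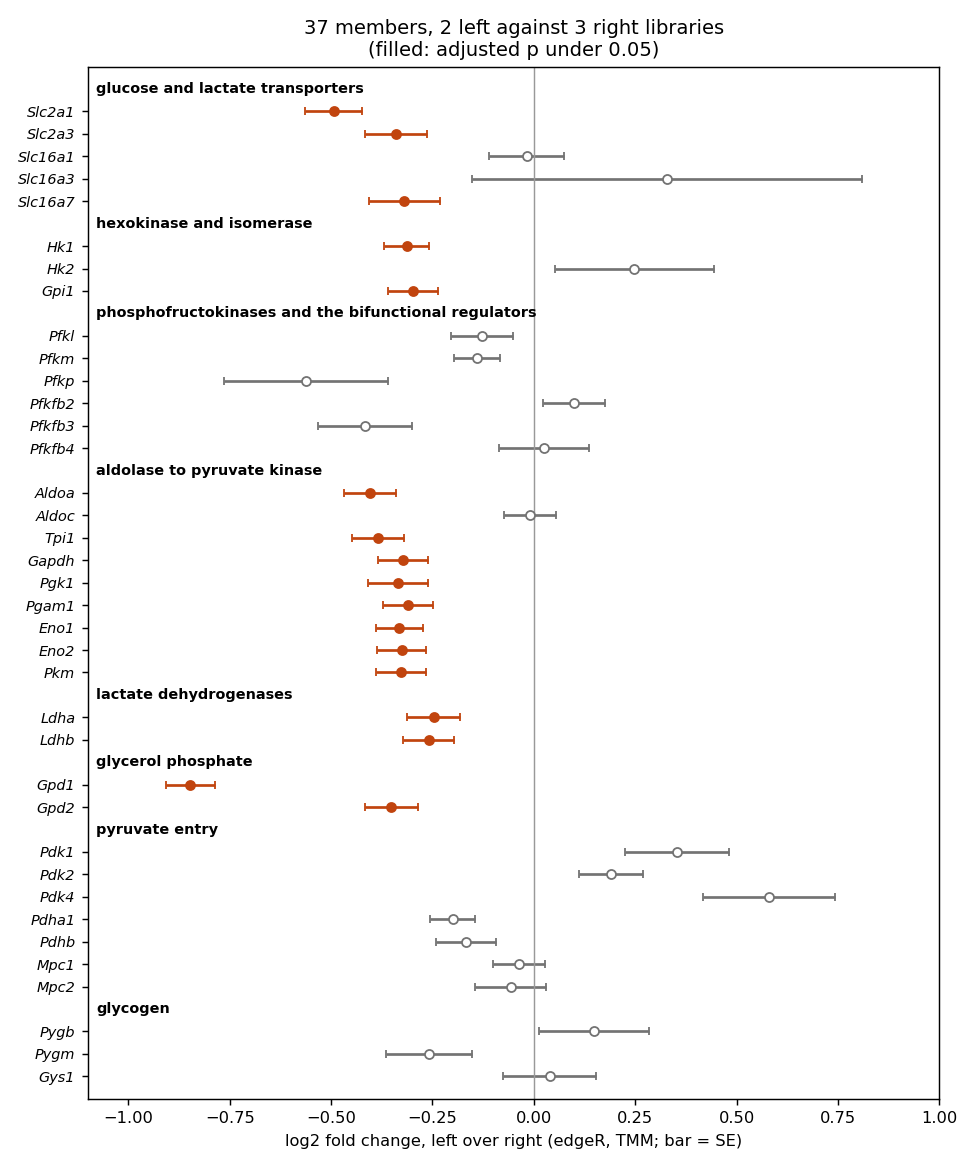
Log2 fold change, left over right, of the 37 members in the order of their roles, from the fit of 2 left and 3 right libraries with TMM scaling. Points are estimates, bars are SE, and filled points mark an adjusted p under 0.05. The filled points all lie below 0, from -0.25 for Ldha to -0.85 for Gpd1.

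The largest change of a member was that of Gpd1, the cytosolic glycerol 3-phosphate dehydrogenase, which turns dihydroxyacetone phosphate and NADH into glycerol 3-phosphate and is known in brain as an enzyme of oligodendrocytes. Gpd1 (ENSMUSG00000023019, chromosome 15, 99717515 to 99725005 on GRCm38, plus strand) stood at 61.5 and 62.1 CPM in left 1037 and 1039, against 108, 103 and 105 CPM in right 1037, 1038 and 1039. The left libraries lay close together and below all right ones, with 61.8 ± 0.411 CPM on the left and 105 ± 2.51 CPM on the right (SD, n = 2 and 3). Gpd1 fell by 0.85 on the log2 scale (SE 0.06, adjusted p = 0.000184), and the call held in each of the 5 leave-outs of 1 library (adjusted p up to 0.00207). Markers of mature oligodendrocytes did not separate the sides. Their summed level was 2053 and 2438 CPM in left 1037 and 1039, and 2243, 1957 and 2465 CPM in right 1037, 1038 and 1039, and of the 10 genes 1 rose and 0 fell.

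Gpd2, the mitochondrial partner that reoxidizes glycerol 3-phosphate, had a smaller change. It stood at 107 CPM in both left libraries and at 122, 138 and 127 CPM in right 1037, 1038 and 1039, with no overlap. Gpd2 fell by 0.35 (SE 0.07, adjusted p = 0.00988). As a share of the pair, in counts per kilobase of exon, Gpd1 made up 56.0% and 56.2% in left 1037 and 1039, against 66.0%, 62.2% and 64.7% in right 1037, 1038 and 1039. Such a share does not depend on how libraries are scaled. The difference between the 2 genes was not tested.

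Among the transporters, Slc2a1 encodes GLUT1, the glucose carrier of brain endothelium and glia. Slc2a1 (ENSMUSG00000028645, chromosome 4, 119108711 to 119137983) stood at 97.4 and 88.2 CPM in left 1037 and 1039, against 127, 126 and 117 CPM in right 1037, 1038 and 1039, and the groups did not overlap. It fell by 0.49 (SE 0.07, adjusted p = 0.00318), and this call, like that of Gpd2, held in the 5 leave-outs. Of 10 markers of endothelial and mural cells 0 rose and 1 fell, and their summed level of 440 and 478 CPM on the left spanned that on the right, 446 to 473 CPM.

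Slc2a3 encodes GLUT3, the main glucose carrier of neurons. It stood at 151 and 147 CPM in left 1037 and 1039 and at 195, 172 and 166 CPM in right 1037, 1038 and 1039, so all left values were below all right ones. Slc2a3 fell by 0.34 (SE 0.08, adjusted p = 0.0234), a call lost when left 1037, left 1039, right 1037 or right 1038 was left out (adjusted p up to 0.0931 in these) and with scaling by total library size. Slc16a7 encodes MCT2, a high-affinity carrier that neurons use to take up lactate. It was lower in both left libraries, at 32.7 and 29.8 CPM, against 35.4, 36.7 and 38.4 CPM on the right, and fell by 0.32 (SE 0.09, adjusted p = 0.0477). That call was the weakest of the 17. It was lost when any 1 of the 5 libraries was left out (adjusted p up to 0.246). A block for mouse gave an adjusted p of 0.0579, where the alternatives ranged from 0.0480 to 0.672.

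Slc16a1 encodes MCT1, the lactate carrier of endothelium and glia, and did not separate the sides. It stood at 49.0 and 42.0 CPM in left 1037 and 1039 and at 42.6, 46.4 and 41.7 CPM in right 1037, 1038 and 1039, with a log2 fold change of -0.02 (SE 0.09, adjusted p = 0.934). Slc16a3 encodes MCT4, a lactate exporter, and was close to the detection limit, at 0.842 and 1.46 CPM on the left and 0.577, 0.662 and 1.37 CPM on the right. These levels rest on 9 to 22 counts per library, and its log2 fold change was 0.33 (SE 0.48, adjusted p = 0.730).

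**Figure D2:**
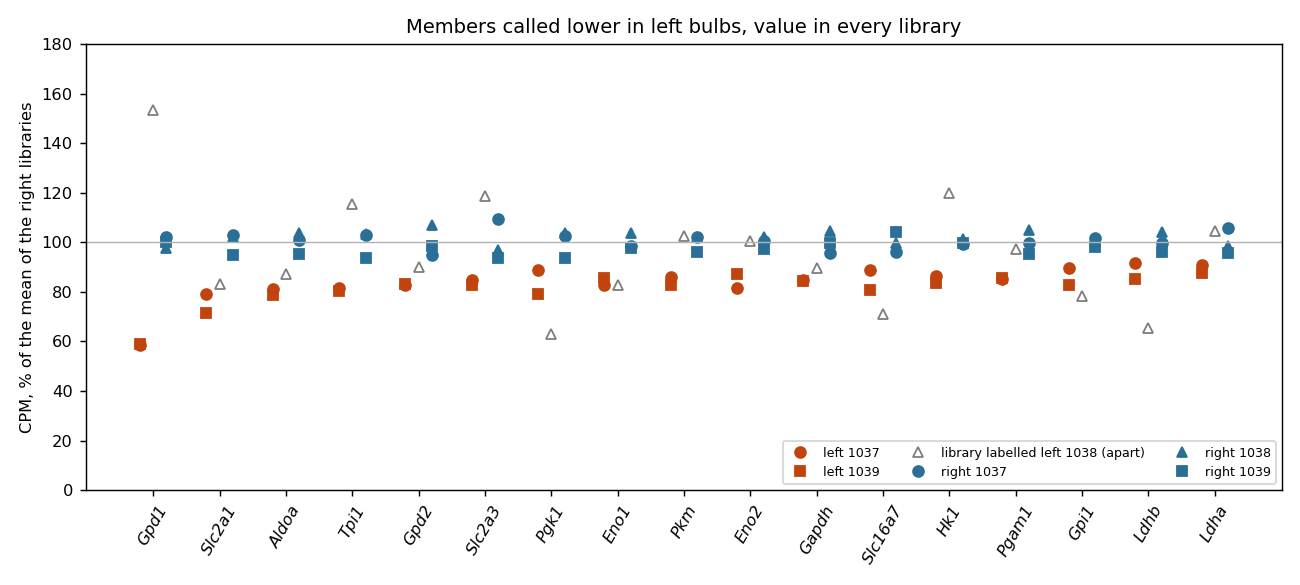
CPM of the 17 members called lower, as a percentage of the mean of the right libraries (linear axis from 0), with 1 point per library. Left 1037 and 1039 are orange and stand to the left of the blue right libraries of the same gene, and open grey triangles are the library labelled left 1038. All orange points lie below all blue ones, and the gap is widest for Gpd1.

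In the first steps, Hk1, the hexokinase on brain mitochondria that starts glycolysis, and Gpi1, the isomerase of glucose 6-phosphate, fell. Hk1 (chromosome 10, 62268855 to 62379908, minus strand) had 225 and 218 CPM in left 1037 and 1039, against 258, 264 and 260 CPM in right 1037, 1038 and 1039, and fell by 0.31 (SE 0.05, adjusted p = 0.00733). Gpi1 had 541 and 500 CPM on the left and 614, 607 and 592 CPM on the right, and fell by 0.30 (SE 0.06, adjusted p = 0.0160). In neither gene did the groups overlap. The call of Hk1 held in the 5 leave-outs, and that of Gpi1 was lost if left 1039, right 1037 or right 1038 was left out (adjusted p up to 0.0821 with edgeR).

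Hk2, the inducible hexokinase, was scarce in the bulb. It had 5.70 and 6.37 CPM in left 1037 and 1039 and 5.45, 4.77 and 4.16 CPM in right 1037, 1038 and 1039, with a log2 fold change of 0.25 (SE 0.20, adjusted p = 0.486). Per kilobase, Hk1 made up 96.5% and 96.0% of the hexokinase pair on the left, against 97.1%, 97.5% and 97.8% on the right.

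No gene of the phosphofructokinase step was called. Pfkm, the muscle type isozyme, was the main one per kilobase of exon, with 67.5% and 72.8% of the 3 isozymes in left 1037 and 1039 and 64.4%, 64.0% and 69.1% in right 1037, 1038 and 1039. That order depends on length, since the exon union of Pfkp holds 13401 bases and that of Pfkm 3340. Without division by length, Pfkp made up 51.4% and 40.4% in left 1037 and 1039 and 57.3%, 55.8% and 47.2% on the right. Pfkm then made up 37.9% and 45.7% on the left and 33.9%, 33.9% and 40.3% on the right. Pfkm had a log2 fold change of -0.14 (SE 0.06, adjusted p = 0.159) and Pfkl, the liver type, -0.13 (SE 0.08, adjusted p = 0.348).

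Pfkp, the platelet type, varied between mice. It stood at 443 and 277 CPM in left 1037 and 1039, against 561, 561 and 382 CPM in right 1037, 1038 and 1039. Both bulbs of mouse 1039 were low, and the groups overlapped. Within each mouse the left bulb was lower, by 0.34 and 0.46 on the log2 CPM scale in mice 1037 and 1039. The log2 fold change was -0.56 (SE 0.20, adjusted p = 0.119). Pfkp passed with mouse as a term of the fit (adjusted p = 0.000483 in edgeR and 2.65e-05 in DESeq2). With side alone it also passed when right 1039 was left out, but not on the total-size scale (adjusted p = 0.152 in edgeR). The log2 fold change was -0.94 without left 1037 and -0.25 without left 1039. Pfkp shares 748 bases of exon with Pitrm1 on the opposite strand, which is 5.58% of its exon bases.

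Pfkfb3 makes fructose 2,6-bisphosphate, the activator of phosphofructokinase, with a strong bias to the kinase reaction. It stood at 39.2 and 37.8 CPM in left 1037 and 1039 and at 56.3, 43.8 and 45.3 CPM in right 1037, 1038 and 1039, with no overlap. Its log2 fold change was -0.42 (SE 0.12, adjusted p = 0.0505), and with mouse as a term it passed in edgeR (adjusted p = 0.00459) but not in DESeq2 (adjusted p = 0.138), where the alternatives ranged from 0.00459 to 0.170. With side alone, Pfkfb3 was called by DESeq2 and by edgeR without the filter on low counts. Pfkfb2 and Pfkfb4, isozymes of the same reaction, had 0.10 and 0.03 and did not pass (adjusted p = 0.469 and 0.921). Within the family, Pfkfb3 made up 30.3% and 30.4% per kilobase in left 1037 and 1039, against 41.6%, 36.5% and 35.4% in right 1037, 1038 and 1039.

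From aldolase to pyruvate kinase, 8 of 9 genes fell, by 0.31 to 0.40 on the log2 scale. Aldoa, the aldolase of most tissues, had the largest change of them. Aldoa (ENSMUSG00000030695, chromosome 7, 126795234 to 126800751, minus strand) stood at 948 and 919 CPM in left 1037 and 1039, against 1179, 1212 and 1110 CPM in right 1037, 1038 and 1039. It fell by 0.40 (SE 0.06, adjusted p = 0.00492).

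Aldoc, the aldolase of astrocytes, was the gene of this group that was not called. It had 575 and 531 CPM in left 1037 and 1039 and 497, 535 and 545 CPM in right 1037, 1038 and 1039, with a log2 fold change of -0.01 (SE 0.06, adjusted p = 0.954). On the total-size scale it was 0.07. The share of Aldoa in the pair, per kilobase of exon, was 64.9% and 66.0% on the left, against 72.7%, 71.8% and 69.5% on the right, with no overlap. The summed level of 10 astrocyte markers, which do not include Aldoc, was 5989 and 5714 CPM in left 1037 and 1039 and 4993, 5389 and 5365 CPM in right 1037, 1038 and 1039, and of these genes 2 rose and 1 fell. Gfap alone stood at 543 and 578 CPM on the left and 221, 248 and 297 CPM on the right. Aqp4, Gja1, Fgfr3 and Atp1b2 also lay higher in both left libraries than in all right ones, and S100b lay lower. Among all genes tested, 33.2% lay higher in this way on the CPM scale and 13.2% lay lower. The groups overlapped for Slc1a3, Slc1a2, Aldh1l1 and Glul. The part of these markers in the levels of Aldoc was not tested.

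Tpi1, the triose phosphate isomerase, stood at 320 and 315 CPM in left 1037 and 1039, against 403, 404 and 367 CPM in right 1037, 1038 and 1039, and fell by 0.38 (SE 0.06, adjusted p = 0.00648). Eno1, the enolase of most tissues, had 268 and 277 CPM on the left and 319, 336 and 316 CPM on the right, and fell by 0.33 (SE 0.06, adjusted p = 0.00740). The calls of Aldoa, Tpi1 and Eno1 held in the 5 leave-outs. Eno2, the enolase of neurons, had 739 and 790 CPM on the left and 909, 925 and 882 CPM on the right, and fell by 0.33 (SE 0.06, adjusted p = 0.0101). The groups overlapped in the proportion of the enolases, with Eno1 at 24.1% and 23.5% of the pair per kilobase on the left and 23.5%, 24.1% and 23.9% on the right.

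Gapdh, the dehydrogenase of glyceraldehyde 3-phosphate and a common reference gene in expression assays, was among the genes that fell. It stood at 1142 CPM in both left libraries, against 1293, 1411 and 1346 CPM in right 1037, 1038 and 1039, and fell by 0.32 (SE 0.06, adjusted p = 0.0109). Pkm, the pyruvate kinase of brain and muscle that ends glycolysis, had 715 and 688 CPM on the left and 848, 848 and 799 CPM on the right, and fell by 0.33 (SE 0.06, adjusted p = 0.0101). The groups of neither gene overlapped.

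Pgk1, phosphoglycerate kinase, and Pgam1, phosphoglycerate mutase, fell by 0.33 (SE 0.07, adjusted p = 0.0209) and 0.31 (SE 0.06, adjusted p = 0.0136). Pgk1 had 228 and 203 CPM in left 1037 and 1039 and 263, 267 and 241 CPM in right 1037, 1038 and 1039. Pgam1 had 332 and 335 CPM on the left and 390, 410 and 372 CPM on the right. Without right 1038 the calls of Gapdh, Pgk1, Pgam1, Eno2 and Pkm were lost (adjusted p up to 0.116), without right 1037 the same calls but Gapdh, and without left 1039 that of Pgk1, which scaling by total library size also ended. Gapdh and other genes of this group have processed copies elsewhere in the genome, and no source used here tells how reads with several positions were counted, so their counts are uncertain to that extent.

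Both lactate dehydrogenases fell, by the smallest amounts of the 17. Ldhb, the subunit of heart and of neurons, had 536 and 498 CPM in left 1037 and 1039, against 583, 609 and 563 CPM in right 1037, 1038 and 1039, and fell by 0.26 (SE 0.06, adjusted p = 0.0332). Ldha, the subunit of muscle, had 113 and 109 CPM on the left and 132, 123 and 120 CPM on the right, and fell by 0.25 (SE 0.07, adjusted p = 0.0427). Ldha made up 9.10% and 9.44% of the pair per kilobase on the left and 9.69%, 8.74% and 9.15% on the right, so the groups overlapped in that share. Leaving out left 1039, right 1037 or right 1038 ended both calls (adjusted p up to 0.184), as did scaling by total library size, and leaving out left 1037 ended that of Ldha.

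**Figure D3:**
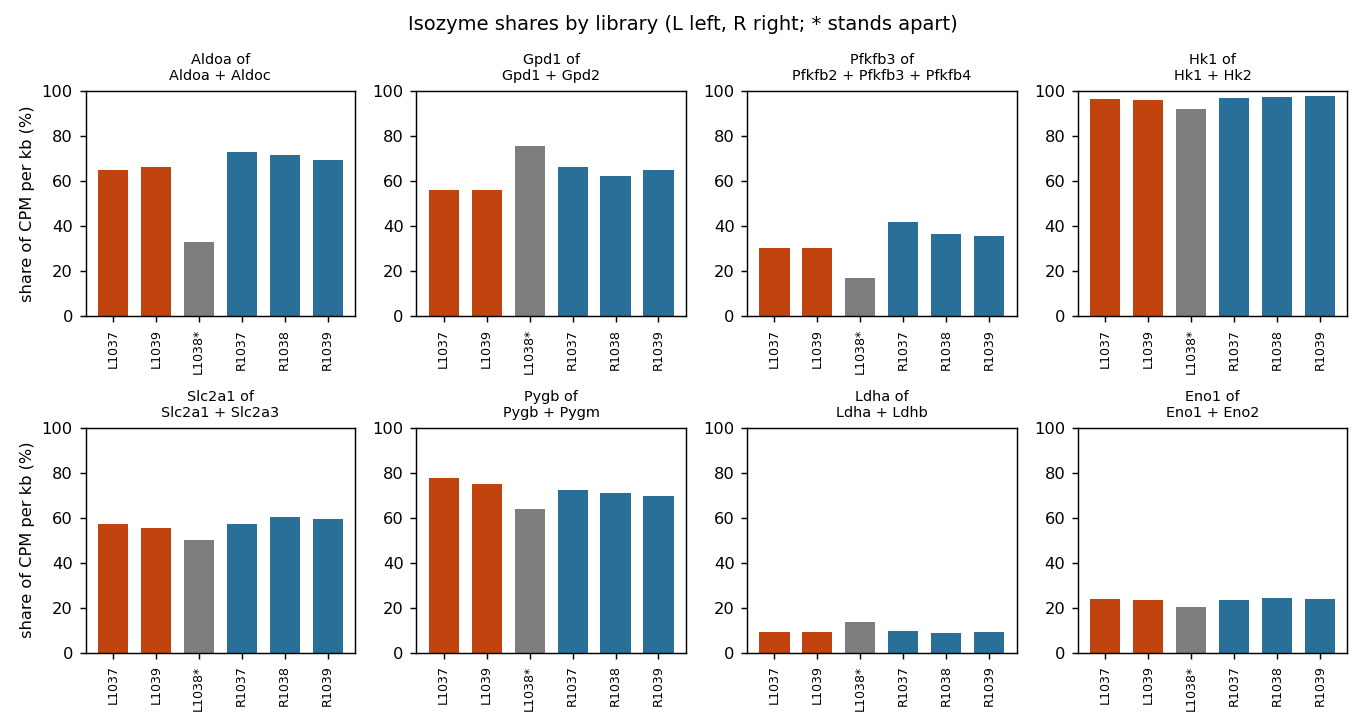
Share of the first-named gene in its isozyme family, in percent of the family's CPM per kilobase of exon, with 1 bar per library. Orange bars are left 1037 and 1039, the grey bar is the library labelled left 1038 and blue bars are the right libraries. The shares of Aldoa, Gpd1 and Pfkfb3 lie lower in both orange bars than in every blue bar, while those of Ldha and Eno1 overlap.

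At the entry of pyruvate into mitochondria no member was called. Pdk4, the kinase induced by fasting in many tissues, stood at 11.5 and 10.2 CPM in left 1037 and 1039 and at 7.70, 6.82 and 6.08 CPM in right 1037, 1038 and 1039, with no overlap. It had a log2 fold change of 0.58 (SE 0.16, adjusted p = 0.0522). In edgeR, Pdk4 passed with mouse as a term (adjusted p = 0.0451) and on the total-size scale (adjusted p = 0.0301), where the alternatives ranged from 0.0301 to 0.206. DESeq2 with mouse as a term gave it no adjusted p. Pdk1 had 53.6 and 43.5 CPM on the left and 40.9, 30.9 and 36.0 CPM on the right, with a log2 fold change of 0.35 (SE 0.13, adjusted p = 0.123). That of Pdk2 was 0.19 (SE 0.08, adjusted p = 0.173).

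Pdha1, the alpha subunit of the first enzyme of the complex, stood at 249 and 250 CPM in left 1037 and 1039 and at 273, 276 and 263 CPM in right 1037, 1038 and 1039. The groups of Pdha1 did not overlap, and its log2 fold change was -0.20 (SE 0.06, adjusted p = 0.0513). It was called lower by DESeq2 and limma-voom with side alone, where the alternatives ranged from 0.0426 to 0.530. The log2 fold change of the beta subunit Pdhb was -0.17 (SE 0.07, adjusted p = 0.195). Pdha1 shares 603 bases, 16.1% of its exon bases, with Map3k15 on the opposite strand. Mpc1 and Mpc2, which form the pyruvate carrier, had -0.04 and -0.06 (adjusted p = 0.780 and 0.744), and their groups overlapped.

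The 3 glycogen genes were not called. Pygb, the brain type of glycogen phosphorylase, stood at 228 and 168 CPM in left 1037 and 1039 and at 175, 188 and 143 CPM in right 1037, 1038 and 1039, so the groups overlapped. Within each mouse the left bulb was higher, by 0.38 and 0.23 on the log2 CPM scale in mice 1037 and 1039. The log2 fold change was 0.15 (SE 0.14, adjusted p = 0.554), and with mouse as a term Pygb passed in edgeR (adjusted p = 0.0443) but not in DESeq2 (adjusted p = 0.402), where the alternatives ranged from 0.0443 to 0.894. Pygm, the muscle type known from astrocytes, stood at 43.7 and 37.9 CPM on the left and 45.0, 51.3 and 42.0 CPM on the right, which overlapped, and had -0.26 (SE 0.11, adjusted p = 0.164). Gys1, glycogen synthase, had 0.04 (SE 0.12, adjusted p = 0.874). Pygb made up 77.7% and 74.8% of the phosphorylases per kilobase on the left, against 72.2%, 71.1% and 69.5% on the right.

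Compared per kilobase of exon, the members spanned a wide range of levels in the 5 libraries. Aldoa had the highest mean, 369 CPM per kilobase, followed by Ldhb with 355 and Gapdh with 307. Pgam1, Eno2, Aldoc and Pkm followed with 186, 180, 164 and 156 CPM per kilobase. Slc16a3 with 0.185 and Hk2 with 0.887 were lowest. The length is the union of all annotated exons, which counts bases that rare transcripts alone hold, so it lowers genes such as Gapdh with 4133 bases. Values of all 37 summed to 9156 and 8715 CPM in left 1037 and 1039, against 10348, 10645 and 9919 CPM in right 1037, 1038 and 1039.

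**Figure D4:**
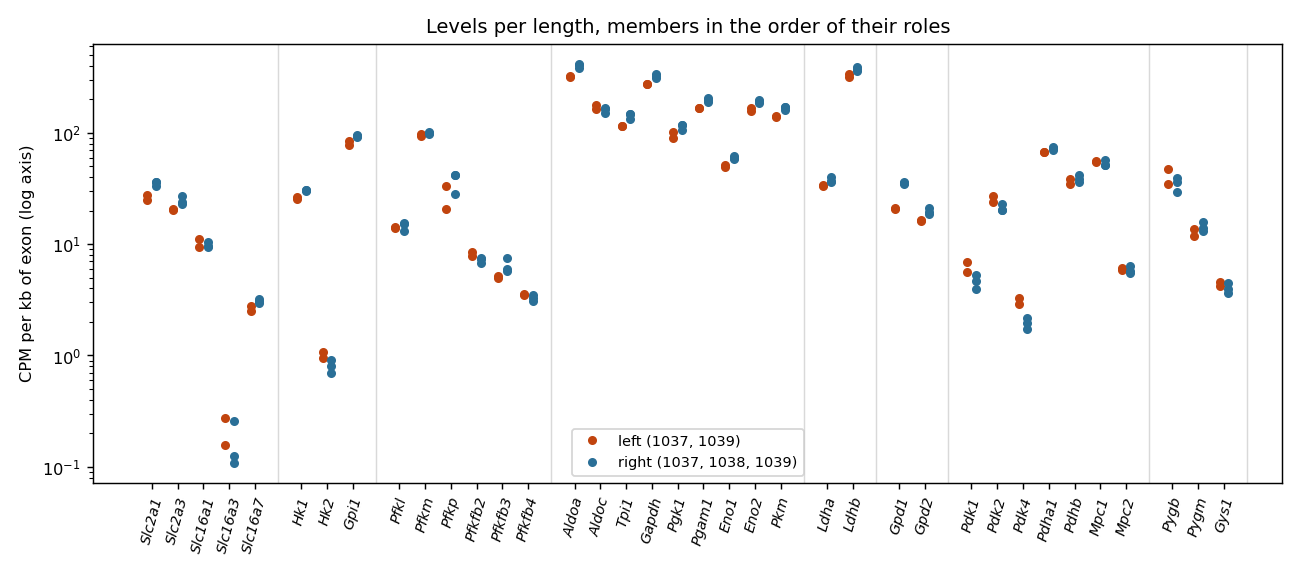
CPM per kilobase of exon (log axis) of the 37 members in the order of their roles, with 1 point per library, left libraries in orange and right libraries in blue. Aldoa, Ldhb and Gapdh lie highest and Slc16a3 lowest, and for genes from aldolase to pyruvate kinase other than Aldoc the orange points lie below the blue ones.

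Many glycolytic genes are known targets of the hypoxia-inducible factors, which bind a core that reads ACGTG or GCGTG on either strand. Windows of 250 bases before an annotated start (RefSeq, GRCm38.p6) were at hand for 34 of the 37 members, 52 windows in all, with several overlapping windows for some genes. A single window is shown for each of 6 members that fell, for 5 because it holds a core and for Tpi1 because it does not. Aldoa, Eno1 and Ldha had further windows that are not shown. That of Ldha at chr7:46845554-46845803 held 5 matches, with both strands counted, and that of Aldoa at chr7:126800448-126800697 held 0. The windows shown read 5′ to 3′ on the strand of the gene and end at the base before the start. Matches to either core, on either strand, are in capitals. The windows are chr4:119108495-119108744 on the plus strand for Slc2a1, chr7:126799255-126799504 on the minus strand for Aldoa, chr4:150236947-150237196 on the plus strand for Eno1, chrX:106186850-106187099 on the plus strand for Pgk1, chr7:46846832-46847081 on the plus strand for Ldha and chr6:124814159-124814408 on the minus strand for Tpi1.
Slc2a1: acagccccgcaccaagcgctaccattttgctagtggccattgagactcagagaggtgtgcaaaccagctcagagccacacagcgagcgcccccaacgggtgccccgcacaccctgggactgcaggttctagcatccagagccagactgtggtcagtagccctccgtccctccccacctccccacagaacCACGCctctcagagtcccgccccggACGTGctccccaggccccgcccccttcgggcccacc
Aldoa: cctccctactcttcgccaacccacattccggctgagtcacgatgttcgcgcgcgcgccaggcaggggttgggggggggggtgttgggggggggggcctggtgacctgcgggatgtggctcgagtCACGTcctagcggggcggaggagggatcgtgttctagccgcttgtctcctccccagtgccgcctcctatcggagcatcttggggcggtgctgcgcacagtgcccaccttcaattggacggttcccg
Eno1: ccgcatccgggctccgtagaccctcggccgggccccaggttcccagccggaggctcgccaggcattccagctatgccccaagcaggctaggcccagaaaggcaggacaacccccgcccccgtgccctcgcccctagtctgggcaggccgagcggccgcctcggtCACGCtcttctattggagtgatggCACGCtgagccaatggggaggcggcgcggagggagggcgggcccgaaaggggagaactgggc
Pgk1: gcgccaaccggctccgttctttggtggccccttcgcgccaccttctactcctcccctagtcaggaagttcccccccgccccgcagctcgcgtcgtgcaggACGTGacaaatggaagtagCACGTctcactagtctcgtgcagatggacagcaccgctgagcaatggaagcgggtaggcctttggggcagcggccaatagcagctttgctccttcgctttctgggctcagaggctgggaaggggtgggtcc
Ldha: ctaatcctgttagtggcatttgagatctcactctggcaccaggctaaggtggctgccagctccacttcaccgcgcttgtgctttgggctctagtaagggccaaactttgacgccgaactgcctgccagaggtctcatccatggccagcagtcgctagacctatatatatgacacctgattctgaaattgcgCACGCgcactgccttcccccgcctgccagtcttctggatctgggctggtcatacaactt
Tpi1: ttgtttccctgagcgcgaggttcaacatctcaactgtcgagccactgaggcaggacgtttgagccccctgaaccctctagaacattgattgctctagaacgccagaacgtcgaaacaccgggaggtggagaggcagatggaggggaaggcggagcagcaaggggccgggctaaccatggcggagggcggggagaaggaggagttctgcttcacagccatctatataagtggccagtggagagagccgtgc
The core ACGTG, which also lies inside the palindrome CACGTG, was found in 21 of the 52 windows of members (40.4%) and in 16.6% of all 32851 windows. It was in 8 of the 22 windows of members that fell (36.4%) and in 13 of the 30 windows of the others (43.3%). Those 22 windows belong to 14 members, since Gpd1, Slc2a3 and Slc16a7, which also fell, had no window. GCGTG was found in 53.8% of the windows of members and in 28.2% of all windows, with 40.9% for the members that fell and 63.3% for the others. The windows of members held more G and C, with a median of 60.4% against 52.4% in all windows. The palindrome CACGTG was in 11.5% of the windows of members and 6.02% of all. The part of base composition in the matches was not tested, and a match is not a bound site.

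Other genes of the same routes give the surroundings of these results, to be read beside the 6.46% of all genes that fell and 3.16% that rose. Of 13 further enzymes and isozymes of glycolysis tested, 0 rose and 1 fell. This was Hkdc1, a protein of the hexokinase family, with 4.60 and 4.78 CPM in left 1037 and 1039, against 10.3, 12.9 and 11.7 CPM in right 1037, 1038 and 1039 (log2 fold change -1.39, SE 0.17, adjusted p = 0.00142). Of 11 further transport and lactate dehydrogenase genes 0 rose and 1 fell, which was Slc2a13, a proton-coupled myo-inositol carrier, with -0.87 (SE 0.08, adjusted p = 0.000548). Hkdc1 and Slc2a13 were called in the 5 leave-outs.

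Of 10 genes next to the glycerol phosphate enzymes, mostly of the malate-aspartate shuttle, the other route for cytosolic NADH, 0 rose and 3 fell. Mdh1, the cytosolic malate dehydrogenase, stood at 461 and 445 CPM in left 1037 and 1039, against 598, 606 and 541 CPM in right 1037, 1038 and 1039, and fell by 0.44 (SE 0.07, adjusted p = 0.00445). Got2 and Got1, the mitochondrial and cytosolic aspartate aminotransferases, fell by 0.39 (SE 0.07, adjusted p = 0.00770) and 0.28 (SE 0.06, adjusted p = 0.0130). The call of Got1 was lost if left 1039, right 1037 or right 1038 was left out (p up to 0.0624, adjusted).

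Of 8 further genes around pyruvate dehydrogenase 0 rose and 2 fell. Pdk3, a kinase of the complex that is not among the 37, fell by 0.52 (SE 0.09, adjusted p = 0.00655), a call lost in DESeq2 with mouse as a term (adjusted p = 0.0954). Dlat, the acetyltransferase of the complex, fell by 0.30 (SE 0.08, adjusted p = 0.0473). That call was lost on the total-size scale and if left 1039, right 1037 or right 1038 was left out (log2 fold change -0.39 to -0.21 in the leave-outs). It was also lost with RLE scaling, with a filter of 1 CPM in 3 libraries, in limma-voom and in DESeq2 with mouse as a term. Of 19 further glycogen genes 2 rose and 1 fell. Phkg1, a catalytic subunit of phosphorylase kinase, rose by 0.47 (SE 0.10, adjusted p = 0.0229) and Pgm2l1, a glucose 1,6-bisphosphate synthase, rose by 0.28 (SE 0.07, adjusted p = 0.0289), while Gbe1, the branching enzyme, fell by 0.52 (SE 0.10, adjusted p = 0.0138). These 3 calls were each lost if left 1039, right 1037 or right 1038 was left out (p up to 0.146, adjusted), that of Phkg1 also without left 1037 and that of Pgm2l1 also without right 1039. None of 8 genes of the pentose phosphate pathway was called.

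Of 21 regulators and known targets of hypoxia and energy sensing outside glycolysis, 1 rose and 6 fell, where 3.16% of all genes rose and 6.46% fell. Other hypoxia genes of that list were not called. Their log2 fold changes were -0.21 for Hif1a (adjusted p = 0.0505), -0.08 for Bnip3 (0.587) and -0.07 for Egln1 (0.521). Ankrd37 had 0.06 (adjusted p = 0.926) and Ddit4 0.13 (0.499). Vegfa, the angiogenic growth factor, stood at 97.4 and 83.8 CPM in left 1037 and 1039, against 134, 138 and 138 CPM in right 1037, 1038 and 1039, and fell by 0.68 (SE 0.07, adjusted p = 0.000990). Egln3, an oxygen-sensing prolyl hydroxylase that is itself induced by hypoxia, fell by 1.01 (SE 0.13, adjusted p = 0.00209). Epas1, which encodes HIF-2 alpha, fell by 0.38 (SE 0.07, adjusted p = 0.00838), a call lost in DESeq2 with mouse as a term (adjusted p = 0.0910).

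The nuclear receptors Esrrg and Esrra, known as activators of energy metabolism genes, fell by 0.88 (SE 0.12, adjusted p = 0.00237) and 0.35 (SE 0.07, adjusted p = 0.0167). Their coactivator Ppargc1a fell by 0.38 (SE 0.08, adjusted p = 0.0139). Txnip, which limits glucose uptake and is induced by glucose, was the gene that rose, with 55.5 and 55.6 CPM in left 1037 and 1039, against 33.7, 32.0 and 38.0 CPM in right 1037, 1038 and 1039 (log2 fold change 0.60, SE 0.09, adjusted p = 0.00349). Esrra lost its call if left 1039, right 1037 or right 1038 was left out (p up to 0.0789, adjusted) and Ppargc1a without left 1037 (adjusted p = 0.0651).

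Several sums of cell type markers also differed between the sides, where 6.46% of all genes fell and 3.16% rose. Without Eno2, 9 general neuron markers summed to 5746 and 5837 CPM in left 1037 and 1039, against 6437, 6487 and 6243 CPM in right 1037, 1038 and 1039. Of the 10 with Eno2, 1 rose and 4 fell. Snap25, Syt1 and Map2 lay lower in CPM in both left libraries than in all right ones, and Nefm, Tubb3 and Stmn2 lay higher. The groups overlapped for Rbfox3, Nefl and Thy1. On the CPM scale both left libraries lay below all right ones for 13.2% of all genes tested and above them for 33.2%. Bulb interneuron markers summed to 3391 and 3937 CPM on the left and to 4337, 4671 and 4383 CPM on the right, with 0 of 10 risen and 4 fallen. Gad1 weighs heavily in that sum, with 1293 and 1485 CPM on the left and 1899, 2052 and 1886 CPM on the right. In CPM, Gad1, Gad2, Slc32a1 and Sp8 lay lower in both left libraries than in all right ones, and Dlx6 lay higher. The groups overlapped for Dlx1, Dlx2, Dlx5, Meis2 and Synpr. Microglia markers summed to 374 and 390 CPM on the left and 296, 280 and 301 CPM on the right, with 3 of 10 risen and 0 fallen. Sensory neuron markers summed to 191 and 129 CPM on the left and 458, 397 and 375 CPM on the right, with 0 of 10 risen and 5 fallen. The summed mitral and tufted cell markers stood at 2631 and 2224 CPM on the left and 2208, 2261 and 2220 CPM on the right, with 2 of 9 risen and 1 fallen. The part of these markers in the levels of the members was not tested.

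In the library labelled left 1038, whose markers were those of cerebellum, most members lay within 2-fold of their level in the bulbs. Of the 36 members with at least 1 CPM there or in the median of the other 5 libraries, 3 lay over 2-fold above that median and 2 over 2-fold below, where this held for 9.55% and 17.4% of all genes. Aldoc, which in cerebellum is known as zebrin II of Purkinje cells, stood at 2319 CPM, 4.34 times the median. Purkinje cell markers other than Aldoc summed to 6338 CPM in it and to 462 to 661 CPM in the others.

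Hk2 stood at 19.1 CPM, 3.50 times the median, and Pdk2 at 221 CPM, 3.05 times the median. Pfkfb3 and Pdk1 were low, at 20.5 and 20.0 CPM, which is 0.467 and 0.489 of the median. The share of Aldoa in the aldolase pair was 32.9% per kilobase, and that of Pfkm among the phosphofructokinases 83.5%. This is 1 library with no replicate.

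Of the members that fell in the 5 libraries, Gpd1, Slc2a3, Hk1, Tpi1 and Pkm stood above all bulb libraries in it, at 161, 211, 312, 452 and 854 CPM. Slc16a7, Gpi1, Pgk1 and Ldhb stood below all of them, at 26.1, 473, 162 and 384 CPM. The others lay within the range of the bulb libraries, with Gpd2 at 116 CPM, Slc2a1 at 103, Aldoa at 1016, Gapdh at 1208, Pgam1 at 381, Eno1 at 269, Eno2 at 908 and Ldha at 130 CPM. Of the members not called, Slc16a3 had 0.343, Pdha1 154 and Pygm 43.9 CPM. With it in the fit, edgeR called 0 of the 37 members and 0 of 14209 genes (1196 at an unadjusted p under 0.05), and all 17 members that fell in the 5 libraries had a log2 fold change below 0.

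**Figure D5:**
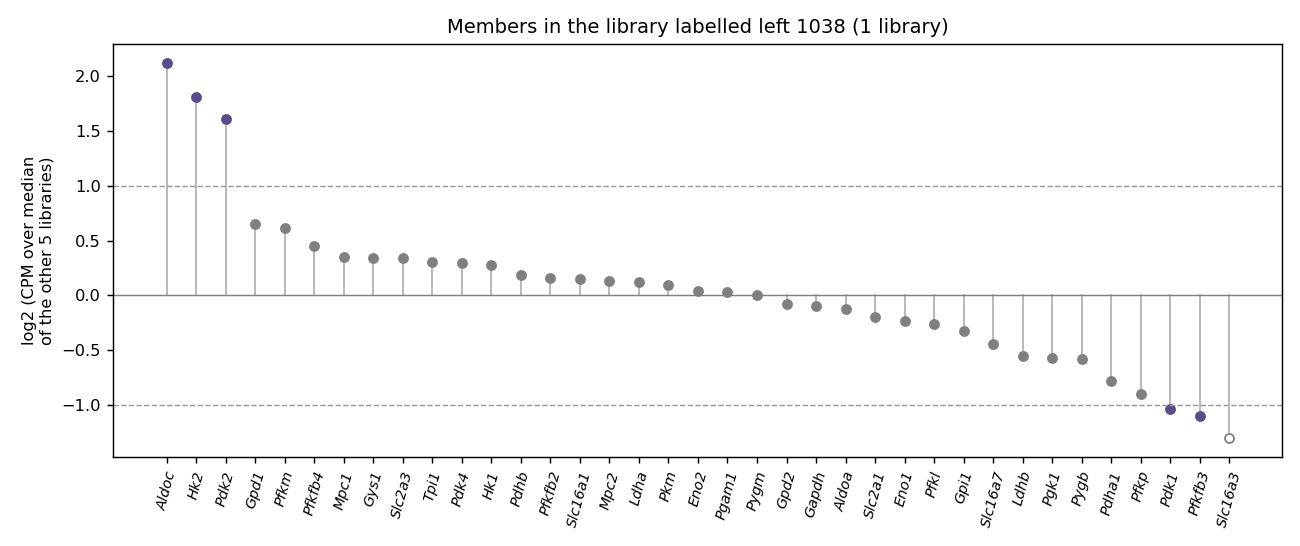
Log2 of the CPM in the library labelled left 1038 over the median of the other 5 libraries, for the 37 members in order of that ratio. Dashed lines mark 2-fold, purple points lie beyond them, and the open point, Slc16a3, is under 1 CPM in both. Aldoc, Hk2 and Pdk2 lie above the upper line.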

How the data were processed

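Per the file headers, the authors deposited read counts per gene and library, RPKM values and a gene length. RPKM recomputed from the counts matched within 3.8e-11, but for 78.34% of genes the deposited length is the genomic span within 1 base, so RPKM were not used here. The submitters' processing notes name GRCm38, HTSeq 0.6.1p2, TopHat2, DESeq 1.18.0 and cutadapt 1.2.1, without saying what each did. Use of the strand in counting is not stated. Of the 22095 genes, 21852 matched a symbol, and 8 members share exon bases with another gene of the table.

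The test was edgeR's quasi-likelihood test (edgeR 4.0.16, R 4.3.3, TMM scaling, filterByExpr) of side alone in 2 left and 3 right libraries. The SE is the absolute log2 fold change divided by the square root of F, and p-values are two-sided. Alternatives were other scaling, filters, DESeq2 1.42.0, limma-voom (limma 3.58.1), the mouse as a block, all 6 libraries, and leaving out each library. The script was tested on simulated data. Both bulbs of a mouse carry its number, so libraries are paired by animal. Deviations from the group means correlated at 0.259 in the 4 libraries of mice 1037 and 1039, and over all 6 libraries, left 1038 included, at 0.098, 0.041 and 0.092 in mice 1037, 1038 and 1039. With the block and 5 libraries the side difference rests on mice 1037 and 1039.

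All members are accounted for, with values in every library for those called and for the uncalled member with the smallest p in each role. Others, and the promoters shown, were chosen after their values were seen. Members and lists were chosen with earlier results of these data known. Lengths are exon unions of GENCODE M21.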

Additional observations from a re-analysis of the deposited data

Results flagged for a closer look

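In the library labelled left 1038, which the test left out, Aldoc stood at 4.34 times, Hk2 at 3.50 times and Pdk2 at 3.05 times the median of the other 5 libraries. They were picked out because they lay over 2-fold above the level of the libraries that were compared. Groups of 2 or 3 libraries are too small for a check of single outlying samples.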

How the results depend on the processing

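Against 1387 genes and 17 members called in the 5 libraries, fits that left out 1 library called 660 to 1124 genes and 7 to 17 members, among them 7 to 16 of the 17. All 6 libraries gave 0 genes and 0 members, and DESeq2 with the mouse as a block 432 genes and 10 members, which lost Hk1, Pgk1, Pgam1, Ldha, Ldhb, Slc2a3, Slc16a7 and Gpd2 and added Pfkp. The other settings gave 1359 to 1564 genes and 13 to 20 members, with 20 from edgeR with the mouse as a block, which added Pdk4, Pfkfb3, Pfkp and Pygb and lost Slc16a7. It changed no other call of a member or named gene. Of the further genes named, DESeq2 with the mouse as a block lost Dlat, Epas1, Esrra, Gbe1, Got1, Pdk3, Pgm2l1, Phkg1 and Ppargc1a (adjusted p from 0.0910 to 0.469). All 17 members stayed below 0 in every setting.

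Values of members that were not called changed sign in some settings, the cause of which was not tested. With all 6 libraries Pfkm had 0.15, Aldoc 1.10, Slc16a1 0.035, Slc16a3 -0.030, Mpc1 0.12, Mpc2 0.015 and Pygb -0.038. Scaled by total library size only, Aldoc had 0.073, Slc16a1 0.064, Mpc1 0.046 and Mpc2 0.025. With the mouse as a block Aldoc, Slc16a1 and Mpc2 had 0.0031, 0.026 and 0.0076 in edgeR and 0.0072, 0.029 and 0.012 in DESeq2. In the leave-outs Aldoc ranged from -0.066 to 0.060, Slc16a1 from -0.13 to 0.10, Slc16a3 from -0.11 to 0.80, Mpc1 from -0.061 to 0.0096, Mpc2 from -0.10 to 0.011, Pygb from -0.088 to 0.36, Pfkfb4 from -0.0072 to 0.069 and Gys1 from -0.016 to 0.12.

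With 2 left libraries, p-values rest on a spread shared across genes.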
